A study of Homo sapiens with 14 samples.

Results

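The comparison described here sets GATA3 carrying the A442M change against GATA3 carrying the G444E change, both with a FLAG tag at the C-terminal end, by chromatin immunoprecipitation followed by sequencing (ChIP-seq). Its members are the 2 A442M-FLAG and the 2 G444E-FLAG libraries, 4 of the 12 libraries with a peak list, chosen by the genotype in the labels. The labels hold 14 samples in all: wildtype (WT), A442M and G444E GATA3, each with and without FLAG, and cells with an empty vector (2 replicates per group). Lists for the empty vector were not used here, and no background list was subtracted. All libraries came from MDA-MB-231 cells, a long-established breast cancer line of the triple-negative kind, taken on day 3. The immunoprecipitation used a GATA3 antibody in every group, tagged or not, and libraries were made with the ThruPLEX kit. The design text says that the tag stabilises GATA3 whatever the mutation, so the tagged mutants differ from each other in the residue changed while sharing the tag. No treatment is named. Nothing in the labels names the vector, its promoter or a clone, or says that replicates came from separate cultures, so p-values measure only the spread between these libraries, which may be technical.

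GATA3 is a zinc-finger transcription factor that recognises GATA motifs and is known for specifying the luminal lineage of the mammary gland. It is among the genes most often mutated in luminal breast cancer, and many of its mutations fall in or after the second zinc finger, towards the C-terminal end. GATA factors bind mostly at enhancers away from gene starts, where they can open chromatin, and act with partners such as the FOG and LMO/LDB1 cofactors. In a basal-like, mesenchymal cell line such as MDA-MB-231, introduced GATA3 is known to shift cells towards a luminal state.

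A region was counted as one-sided when both libraries of one mutant had a peak there and neither library of the other had one. Few one-sided regions reached a gene start, so the sequences below do not stand for one-sided regions as a whole. A gene-start window was touched by 31 regions (0.434%) on the A442M-FLAG side and by 35 (3.90%) on the G444E-FLAG side. The windows below run from 250 bases before to 50 after a RefSeq gene start (GRCh38.p14) and are written 5′ to 3′ on the gene's strand. Capitals mark, on either strand, the core letters of the GATA motif, which are AGATAA or the same letters ending in G (AGATAG), and also TGATAA or the same ending in G (TGATAG). Shown are the 3 genes on each side whose region ranked highest in the weaker of its own 2 libraries, each with the window that overlaps the region most. The first 3 had a region one-sided to A442M-FLAG. They belong to OR56B1, an olfactory receptor (chr11:5736198-5736497, plus strand), SH3YL1, which binds phosphoinositides (chr2:261081-261380, minus strand), and DDR2, a collagen receptor tyrosine kinase (chr1:162630613-162630912, plus strand).
OR56B1: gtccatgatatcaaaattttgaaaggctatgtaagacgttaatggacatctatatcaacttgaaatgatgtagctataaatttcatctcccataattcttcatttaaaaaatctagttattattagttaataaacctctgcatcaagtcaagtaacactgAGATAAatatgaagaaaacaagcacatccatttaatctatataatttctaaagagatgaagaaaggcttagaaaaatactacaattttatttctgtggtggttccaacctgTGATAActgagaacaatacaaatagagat
SH3YL1: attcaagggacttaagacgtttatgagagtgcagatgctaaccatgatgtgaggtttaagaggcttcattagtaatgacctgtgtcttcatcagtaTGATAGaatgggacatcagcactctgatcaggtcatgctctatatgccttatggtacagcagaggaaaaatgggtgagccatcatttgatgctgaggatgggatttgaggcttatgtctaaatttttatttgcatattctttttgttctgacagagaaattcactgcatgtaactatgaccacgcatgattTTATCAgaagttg
DDR2: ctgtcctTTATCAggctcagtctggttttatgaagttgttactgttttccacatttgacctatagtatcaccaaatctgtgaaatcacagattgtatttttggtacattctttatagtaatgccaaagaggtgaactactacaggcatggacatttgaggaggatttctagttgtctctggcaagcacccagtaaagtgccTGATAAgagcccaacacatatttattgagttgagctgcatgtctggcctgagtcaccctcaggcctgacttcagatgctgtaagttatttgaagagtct
The other 3 had a region one-sided to G444E-FLAG. They belong to DERA, an aldolase of deoxyribose phosphate (chr12:15911082-15911381, plus strand), NIF3L1 (chr2:200889170-200889469, plus strand) and CXCL2, a chemokine that attracts neutrophils (chr4:74099146-74099445, minus strand).
DERA: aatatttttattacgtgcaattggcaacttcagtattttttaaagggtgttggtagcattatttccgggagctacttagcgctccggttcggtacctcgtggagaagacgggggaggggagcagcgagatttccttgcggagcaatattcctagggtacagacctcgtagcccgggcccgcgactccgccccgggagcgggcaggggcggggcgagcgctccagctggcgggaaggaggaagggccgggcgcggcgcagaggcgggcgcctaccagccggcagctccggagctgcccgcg
NIF3L1: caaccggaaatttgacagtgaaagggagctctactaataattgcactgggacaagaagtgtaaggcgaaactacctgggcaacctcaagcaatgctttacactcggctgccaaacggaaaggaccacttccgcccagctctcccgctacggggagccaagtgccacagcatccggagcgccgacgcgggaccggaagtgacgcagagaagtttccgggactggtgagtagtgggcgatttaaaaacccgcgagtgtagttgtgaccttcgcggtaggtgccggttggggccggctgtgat
CXCL2: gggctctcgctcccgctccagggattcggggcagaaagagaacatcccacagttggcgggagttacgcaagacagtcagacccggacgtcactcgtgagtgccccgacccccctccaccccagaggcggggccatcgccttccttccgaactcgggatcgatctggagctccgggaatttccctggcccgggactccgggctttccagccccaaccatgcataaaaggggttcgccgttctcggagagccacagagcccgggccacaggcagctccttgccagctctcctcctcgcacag

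The 3 windows on the A442M-FLAG side held 2 matches each, and the 3 on the G444E-FLAG side held none. At OR56B1 and at SH3YL1 only 1 of the 2 matches lay inside the region, and at DDR2 both did. Over all windows touched by a one-sided region the contrast was smaller. Of the 37 windows (33 genes) on the A442M-FLAG side, 12 (32.4%) held a match, and of the 48 windows (37 genes) on the G444E-FLAG side, 11 (22.9%) did. For comparison, 28.9% of the 539 windows touched by a region called in all 4 libraries held one, as did 4440 of all 22198 windows. Restricted to the bases shared by window and region, with 1 window per gene, 11 of 33 genes (33.3%) against 4 of 37 (10.8%) had a match. Windows of 1 gene overlap, and the windows cover 15842 protein-coding genes, none of them on chromosome 8. A match describes the letters only. The region at DERA (chr12:15911345-15912332) shared only 37 bases with its window, and that at DDR2 covered all 300. Those at OR56B1 and SH3YL1 shared 102 and 160 bases. The region at DDR2 ranked at the 61.4th and 64.1st percentile of the 2 A442M-FLAG lists and was called in 1 of the 8 libraries outside this comparison. That at CXCL2 ranked at the 56.4th and 55.4th percentile of the 2 G444E-FLAG lists and was called in all 8.

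The lists of the A442M-FLAG libraries were longer. A442M-FLAG replicates 1 and 2 held 51694 and 42993 peaks (mean 47343.5 ± 6152.54, SD, n = 2), and G444E-FLAG replicates 1 and 2 held 40389 and 30026 (35207.5 ± 7327.75). Both A442M-FLAG lists were longer than both G444E-FLAG lists, by a mean ratio of 1.35 (0.44 on the log2 scale). The exact permutation test gave p = 0.333 (two-sided), the smallest that 2 libraries against 2 can give. The peaks covered 21.9 and 22.7 Mb in A442M-FLAG and 16.8 and 16.9 Mb in G444E-FLAG. Median peak width overlapped between the groups, at 353 and 436 bp against 352 and 464 bp. The share of peaks within 1 kb of either end of a protein-coding gene was 5.07% and 3.86% in A442M-FLAG and 6.71% and 4.62% in G444E-FLAG (exact permutation test, p = 0.667, two-sided). Replicate 1 had the longer list, the narrower peaks and the larger share at gene ends in both groups. Between same-numbered libraries the share at gene ends was lower in A442M-FLAG in both pairs (exact permutation test within pairs, p = 0.5, two-sided, the smallest that 2 pairs can give).

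Depth cannot be read from these files, which hold no read counts, and each peak carries only the authors' own score, used here to rank peaks within a list. A peak's percentile is the share of its list with a score at or below its own. Peak names ran with gaps, with 90.8% to 92.0% of the numbers present in the 4 lists, so a region without a peak may have held one that was removed before deposit. List length and mutant cannot be told apart in the full lists, so the counts of one-sided regions and of listed genes near them are also given for equal lists, in which all 4 are cut by score to the 30026 peaks of the shortest.

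The strongest binding was shared by the mutants almost throughout. The 165102 peaks merged into 65160 regions, of which 20833 (32%) were called in all 4 libraries. Of the 1000 highest-scoring peaks of each list, between 98.2% and 100% were overlapped by a peak in each of the other 3 lists. The 5 shared regions that ranked highest lay in TFEB, a regulator of lysosome genes (chr6:41730145-41731319), in BTBD9 (chr6:38306425-38308674), beside ECI2, an enzyme of fatty acid oxidation (chr6:4114544-4116496), in MDGA1 (chr6:37666853-37668646) and in ITGB3, the integrin beta-3 subunit (chr17:47300701-47301622). The region in TFEB was the highest-scoring of all 4 lists, at the 100th percentile in each. All 5 were also called in the 8 other libraries, and 4 of the 5 lie on chromosome 6. The Jaccard index of called regions was 0.605 between the A442M-FLAG replicates and 0.539 between the G444E-FLAG replicates. Across mutants it was 0.563 and 0.538 for libraries with the same replicate number, and 0.451 and 0.496 for libraries with different numbers, so the pair of first replicates was more alike than the 2 G444E-FLAG replicates were.

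In full lists, regions one-sided to A442M-FLAG outnumbered those one-sided to G444E-FLAG. There were 7142 (11% of regions) of the former and 897 (1.38%) of the latter. With equal lists of 30026 peaks, merged into 46885 regions, the counts became 3414 (7.28%) and 2188 (4.67%), and 15966 regions were called in all 4. The excess on the A442M-FLAG side thus narrowed but kept its direction. The 2 sides differed in how many had a peak of the other mutant in the full lists, but this depends partly on the cut. G444E-FLAG replicate 2 was the shortest list and lost no peak. A region on the A442M-FLAG side could therefore have a G444E-FLAG peak in the full lists only from replicate 1. Of the 3414 regions one-sided to A442M-FLAG in equal lists, 2840 (83.2%) had no G444E-FLAG peak in the full lists either. Of the 2188 one-sided to G444E-FLAG in equal lists, 527 (24.1%) had no A442M-FLAG peak in the full lists, and 868 had one in both. So most regions on the G444E-FLAG side of the equal lists were regions where the A442M-FLAG libraries had a peak ranked too low to be kept. Single regions were not tested, since an exact test of 2 calls against 2 cannot go below p = 0.333.

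**Figure D1:**
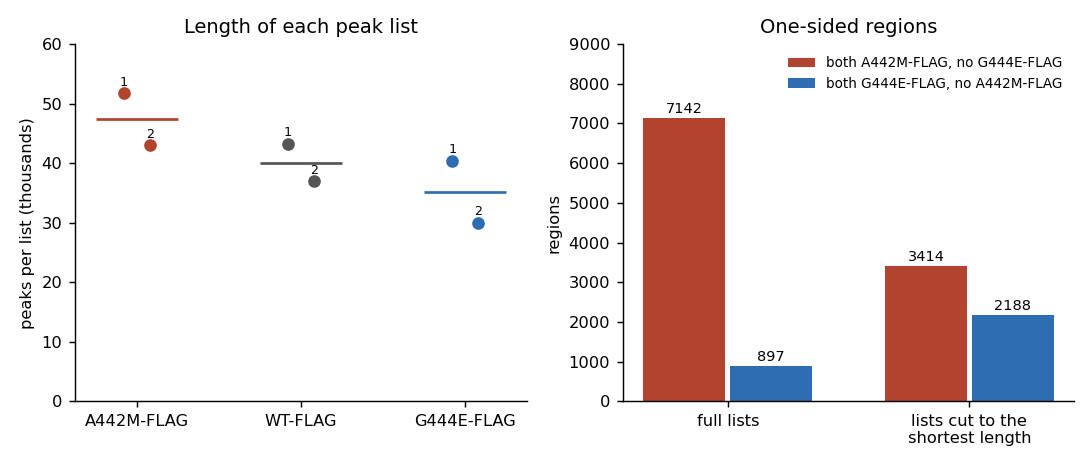
Left, the number of peaks in each list of the 3 FLAG-tagged groups (points, with the replicate number above; lines, group means). Right, the number of regions called in both libraries of one mutant and neither of the other, in full lists and with all 4 lists cut to 30026 peaks: 7142 against 897 becomes 3414 against 2188.

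One-sided regions ranked lower than shared ones. The lower of a region's 2 percentiles had a median of 29.9 for the A442M-FLAG side and 18.7 for the G444E-FLAG side, against 52.4 for regions called in all 4. Their median widths were 398 and 405 bp, against 713 bp. At or above the 75th percentile in both of their libraries were 218 of the A442M-FLAG side and 22 of the G444E-FLAG side, and at or above the 90th were 7 and 1. The 2 sides differed in the share at gene ends. The share more than 100 kb from any gene end was alike, at 22.4% and 22.6%, beside 20.7% of all regions. A gene end lay within 1 kb of 166 regions (2.32%) on the A442M-FLAG side and of 76 (8.47%) on the G444E-FLAG side, beside 3.99% of regions called in all 4 and 5.94% of all regions. With equal lists the shares were 1.73% (59 regions) and 9.96% (218), beside 4.76% of all regions. These shares describe regions and carry no test over libraries. On the G444E-FLAG side, 56 of the 76 regions at gene ends were below the 25th percentile in at least 1 of their libraries. So were 536 of all 897 regions on that side.

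The strongest regions one-sided to A442M-FLAG lay inside or near genes of varied function. The highest was in MADD, which regulates RAB3 and death-receptor signalling (chr11:47315007-47315848). It stood at the 94.5th and 93.9th percentile of the A442M-FLAG lists, had no G444E-FLAG peak, and was called in both WT-FLAG libraries at the 69.0th and 54.1st percentile. Near BLM, the RecQ helicase mutated in Bloom syndrome, a region (chr15:90836394-90837762) stood at the 97.9th and 93.6th percentile. It was called in both WT-FLAG, both untagged A442M and both untagged G444E libraries, so G444E-FLAG was the only mutant group without a call there. A region in AOPEP, an aminopeptidase (chr9:94746030-94746904), at the 92.9th and 94.2nd percentile, was likewise called in those 6 other libraries. A region near SMIM10L1 (chr12:11168442-11169029), at the 92.9th and 89.8th percentile, was called in both untagged A442M libraries, at the 79.2nd and 74.7th percentile, and in both WT-FLAG libraries, and in neither untagged G444E library. So was a region in VPS50, an endosomal recycling factor (chr7:93350311-93350880), at the 92.9th and 90.4th percentile. The remaining 7 regions named by rank lay in ANO9, EXOC4, MKLN1 and CUBN, the intrinsic factor receptor cubilin, and near TMEM19, PXT1 and PPP2R5A, a regulatory subunit of protein phosphatase 2A. None of the 12 was called in an untagged WT library, while all 12 were called in at least 1 WT-FLAG library.

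The strongest regions one-sided to G444E-FLAG had another profile. The highest lay on chromosome 6, more than 100 kb from any protein-coding gene end (chr6:16947494-16947944), at the 93.5th percentile of both G444E-FLAG lists. It had no peak in either A442M-FLAG list, yet in the 8 other libraries it ranked between the 85.2nd and the 94.6th percentile, the untagged A442M libraries included (85.6 and 86.8). A region near BCL3, a nuclear partner of NF-kappaB (chr19:44734914-44735238), stood at the 92.1st and 83.7th percentile, and at the 94.9th and 92.3rd in untagged WT. One in ADGRF5, an adhesion G protein-coupled receptor (chr6:46932512-46932892), stood at the 95.2nd and 84.1st percentile, and at the 99.1st and 97.7th in untagged WT. One in KMT2C, a histone H3 lysine 4 methyltransferase often mutated in breast cancer (chr7:152336766-152337171), stood at the 87.1st and 82.8th. The others lay in GSG1L, DOCK9 and ZCCHC7, near ARAP3 and HHIPL2, and on chromosome 21 far from a gene end. All 10 were called in both untagged WT, both untagged A442M and both WT-FLAG libraries. In all 10, then, A442M-FLAG was the only group with no call, and 9 of the 10 were called in all 8 other libraries, HHIPL2 being the exception with 7.

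The same contrast held over all one-sided regions. The other 8 libraries took no part in choosing them. The WT libraries, untagged, called 5.73% and 5.10% of the A442M-FLAG side and 57.4% and 56.4% of the G444E-FLAG side. Untagged A442M called 19.8% and 18.8% of the former and 64.0% and 64.9% of the latter. Untagged G444E called 7.64% and 7.24% against 55.3% and 55.1%, and WT-FLAG called 31.1% and 28.4% against 66.2% and 65.6%. Of all regions, untagged WT called 35.6% and 31.5%, and untagged A442M called 52.0% and 47.6%. For untagged G444E these shares were 44.9% and 39.2%, and for WT-FLAG 60.1% and 53.0%. In no other library were 3169 regions (44.4%) of the A442M-FLAG side called and 39 (4.35%) of the G444E-FLAG side, beside 22.2% of all regions. In all 8 were 19 (0.266%) and 168 (18.7%), the latter the same share as among all regions (18.7%). Among the stronger regions, at or above the 75th percentile in both of their libraries, the order was the same. The gap between the sides was wider in untagged WT than in WT-FLAG. Both untagged WT libraries called 90.9% of the 22 G444E-FLAG regions and 2.75% of the 218 A442M-FLAG regions, and both WT-FLAG libraries called 68.2% and 48.6%. With the 8 lists cut to the 25248 peaks of the shortest, untagged WT called 4.55% and 5.10% of the A442M-FLAG side and 52.4% and 56.4% of the G444E-FLAG side, beside 32.2% and 31.5% of all regions. WT-FLAG then called 7.56% and 10.5% against 29.5% and 35.8%, beside 37.8% and 38.1% of all regions. With these 8 lists at equal length the G444E-FLAG side was thus still called more often than the A442M-FLAG side. It lay below all regions in WT-FLAG and above them in untagged WT. The one-sided regions themselves still came from the full A442M-FLAG and G444E-FLAG lists, which differ in length. List length was therefore not removed from this contrast.

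**Figure D2:**
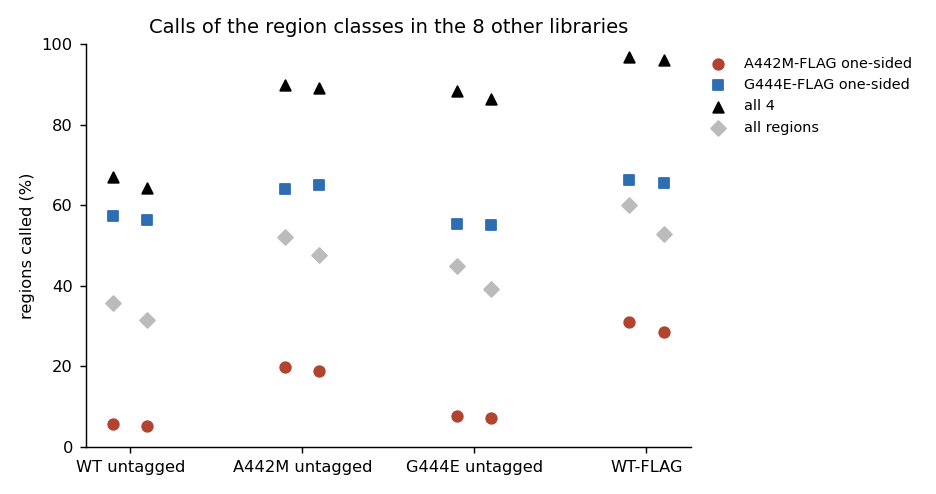
Share of regions (%) called in each of the 8 libraries outside the comparison, 2 points per group, for regions one-sided to A442M-FLAG, regions one-sided to G444E-FLAG, regions called in all 4 libraries and all 65160 regions. The A442M-FLAG side lies lowest in every library, between 5.10% and 31.1%, and the G444E-FLAG side lies above all regions in these full lists. With the 8 lists cut to 25248 peaks it lies below all regions in WT-FLAG.

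The untagged mutants give a second reading of the same residues in libraries that the rule did not use. Among the regions one-sided to A442M-FLAG, 468 were called in both untagged A442M and no untagged G444E library, and 31 showed the reverse. Over all regions these counts were 2855 and 685. With the untagged lists cut to 26926 peaks each, 222 against 45 remained on the A442M-FLAG side, where all regions gave 1478 against 1487. Regions one-sided to A442M-FLAG thus leaned towards untagged A442M beyond the lean of all regions. Among the regions one-sided to G444E-FLAG the counts were 47 and 21 with full untagged lists and 30 and 37 with equal ones, beside 2855 and 685 and then 1478 and 1487 over all regions. With full lists, regions called in both untagged G444E and no untagged A442M library made up 2.34% of this side and 1.05% of all regions. With equal lists they made up 4.12% and 2.28%. The reverse pattern was also more frequent on this side than among all regions. Its shares were 5.24% against 4.38% in full lists and 3.34% against 2.27% in equal ones. On the A442M-FLAG side it was 3.11% in equal lists. The G444E-FLAG side thus exceeded all regions in both patterns. Most one-sided regions of either side showed neither pattern. No test was run on these counts.

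Ranks within shared regions were compared in the 15966 regions called in all 4 equal lists. The limma fit without a replicate block called none of them (0%) at an adjusted p under 0.05 in either direction (smallest adjusted p = 0.177 with limma). At an unadjusted p under 0.05 it had 1542 higher in A442M-FLAG and 1557 higher in G444E-FLAG. With the replicate number as a block, limma called 1877 (11.8%) higher in A442M-FLAG and 2009 (12.6%) higher in G444E-FLAG. With the block each region leaves 1 residual degree of freedom, so these calls rest on the spread pooled over regions. With full lists, the blocked split turned to 4001 higher in A442M-FLAG and 1067 higher in G444E-FLAG. Percentiles of the 2 groups did not overlap in 3760 regions (23.6%) with A442M-FLAG above and 4616 (28.9%) with G444E-FLAG above. Replicates of 1 group differed by a mean of 13.3 points in A442M-FLAG and 12.8 in G444E-FLAG, and same-numbered libraries of the 2 mutants by 15.7 and 14.9 points. The spread between replicates was thus nearly as large as the difference between mutants.

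**Figure D3:**
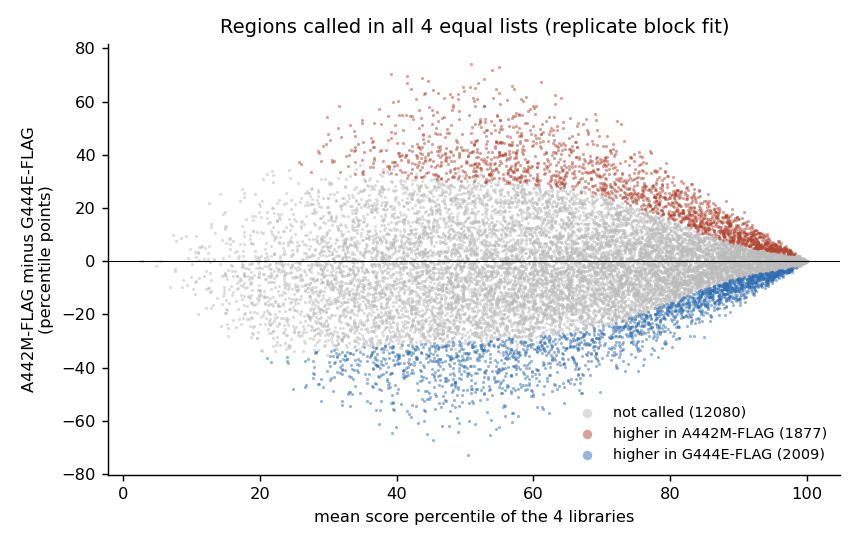
Difference in score percentile (A442M-FLAG minus G444E-FLAG, in points) against the mean percentile of the 4 libraries, 1 point per region, for the 15966 regions called in all 4 equal lists. Red and blue mark the 1877 and 2009 regions called by limma with the replicate block, and grey the rest. Differences shrink towards the top of the lists, where ranks of shared strong regions lie close together.

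In the blocked fit the called regions differed by a median of 27.0 points upwards and of -27.3 points downwards. The region with the largest difference upwards lay in OTOGL (chr12:80213093-80214790). Its percentiles were 88.6 and 87.4 in A442M-FLAG and 16.0 and 11.3 in G444E-FLAG, a difference of 74.3 points (SE 10.5 with the block, limma adjusted p = 0.0023; without it, SE 11.6, limma adjusted p = 0.177). Near UBE2H, a ubiquitin-conjugating enzyme, a region (chr7:129977128-129978058) stood at 98.7 and 96.3 in A442M-FLAG and at 69.8 and 67.0 in G444E-FLAG. In HECTD4, a ubiquitin ligase (chr12:112198932-112199814), the values were 98.8 and 98.7 against 80.2 and 78.3. In RECK, an inhibitor of matrix metalloproteinases (chr9:36053457-36054700), they were 97.4 and 96.8 against 79.7 and 79.5. Regions in FOXJ3 and MLXIP, both transcription factors, in SNX25 and near PHOSPHO1 completed the 8 with the smallest p. For the region in SNX25 the nearest gene end was that of LRP2BP, at 39301 bp. Each of the 8 had both A442M-FLAG values above both G444E-FLAG values. None of the 8 was called in both untagged WT libraries, and all 8 were called in both untagged A442M and both WT-FLAG libraries.

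In the other direction, a region in PTPRG, a receptor tyrosine phosphatase (chr3:61578554-61579473), stood at 74.7 and 66.5 in A442M-FLAG and at 99.6 and 98.5 in G444E-FLAG. The difference was -28.5 points (SE 3.75 with the block, limma adjusted p = 0.0023; without it, SE 4.56, limma adjusted p = 0.177), and WT-FLAG stood at 99.3 and 98.3. A region in SLC44A1, a choline transporter (chr9:105405281-105406017), stood at 79.4 and 84.7 against 98.1 and 98.4. A region in ZNF644, a zinc-finger cofactor of histone H3 lysine 9 methylation, stood at 88.4 and 89.4 against 98.5 and 99.2. Another 4 lay more than 100 kb from any protein-coding gene end, on chromosomes 2, 3, 6 and 7. These 7 regions were called in all 8 libraries outside the comparison, untagged WT included.

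WT-FLAG, which took no part in the fit, was on the G444E-FLAG side of most of these regions. In the 1978 regions called higher in G444E-FLAG that both WT-FLAG lists of the same length also held, the median percentiles were 60.8 in A442M-FLAG, 83.9 in WT-FLAG and 87.8 in G444E-FLAG. WT-FLAG was nearer to G444E-FLAG than to A442M-FLAG in 1836 of them (92.8%). In the 1806 regions called higher in A442M-FLAG, the medians were 89.8, 73.1 and 63.2, and WT-FLAG was nearer to G444E-FLAG in 1221 (67.6%). Over all 15134 tested regions held by WT-FLAG the share was 68.4%. So the regions higher in G444E-FLAG stood above that background, and those higher in A442M-FLAG did not. WT-FLAG lay between the 2 mutants in 86.8% of the regions higher in A442M-FLAG and in 82.0% of those higher in G444E-FLAG, against 54.3% of all. A value between groups that were chosen to lie apart is partly a product of that choice.

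**Figure D4:**
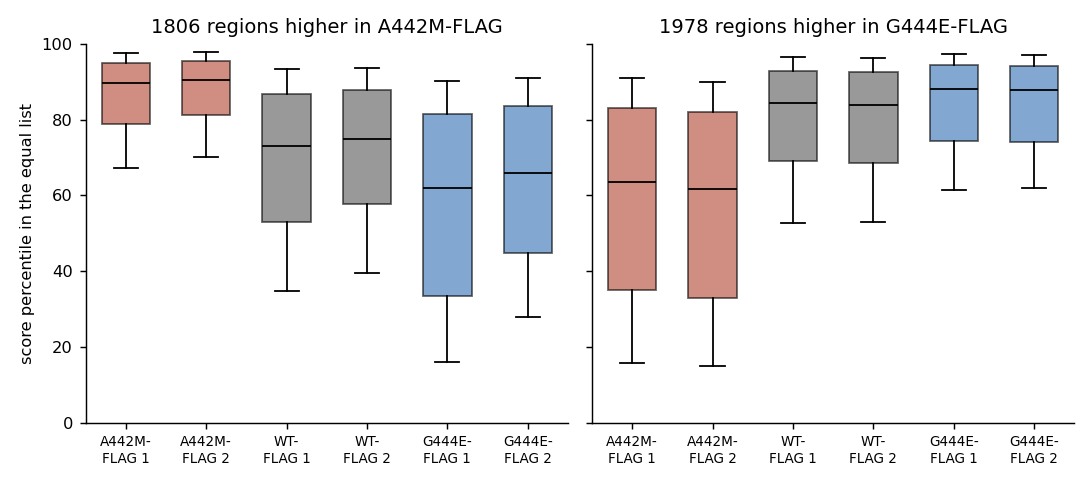
Score percentile in each FLAG-tagged library for the 1806 regions called higher in A442M-FLAG (left) and the 1978 called higher in G444E-FLAG (right) that WT-FLAG lists of equal length also held; boxes span the quartiles, lines are medians and whiskers reach the 10th and 90th percentiles. WT-FLAG medians lie at 73.02 and 75.04 on the left and at 84.4 and 83.9 on the right, where they are close to those of G444E-FLAG (88.2 and 87.8).

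The blocked calls also differed in their share called by untagged WT and in their share at gene ends. Both untagged WT libraries called 27.7% of the regions higher in A442M-FLAG and 93.2% of those higher in G444E-FLAG, against 62.7% of all tested regions. A gene end lay within 1 kb of 32 (1.70%) and 120 (5.97%), against 3.19% of all tested. This was the same order as among the one-sided regions. In the untagged mutants the ranks did not separate in the same way. A442M ranked above G444E, without the tag, in 542 of 1199 regions (45.2%) higher in A442M-FLAG and in 760 of 1903 (39.9%) higher in G444E-FLAG, against 42.6% of all 12119 regions with a rank in the 4 untagged lists. The median untagged difference was -1.62, -1.27 and -1.28 points in these sets.

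At the GATA3 gene itself (chr10:8045333-8075198) no region within 50 kb was one-sided in full lists, out of 6, and with equal lists 1 was one-sided to G444E-FLAG. Inside the gene a region (chr10:8070777-8071293) was called in all 4 libraries, at the 27.5th and 42.2nd percentile in A442M-FLAG and the 46.9th and 25.4th in G444E-FLAG, which overlap. Downstream of it, 2 regions were called in both G444E-FLAG libraries and in 1 A442M-FLAG library each. The nearer (chr10:8084758-8085119) had no peak in A442M-FLAG replicate 1 and stood at the 36.3rd percentile in replicate 2, against the 76.1st and 67.8th in G444E-FLAG. The farther (chr10:8100394-8100814) stood at the 32.8th percentile in A442M-FLAG replicate 1, had no peak in replicate 2, and stood at the 77.7th and 60.4th in G444E-FLAG. Its A442M-FLAG peak scored below the cut for equal lists, so it is the region that was one-sided there. WT-FLAG called both, at the 59.4th and 71.8th percentile and at the 65.9th and 59.7th. At both, each G444E-FLAG value was above the single A442M-FLAG value, and neither region was among those tested. The other 3 had a peak in 1 to 3 of the 4 libraries, at or below the 39.9th percentile.

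Named gene groups were read from 17 lists with 285 distinct members, by regions within 50 kb of either end of a gene. A region within 50 kb of several members was counted for each, so counts of members can rest on fewer regions. Among all 20033 protein-coding genes, 29.5% had a region one-sided to A442M-FLAG, 5.61% one to G444E-FLAG and 54.9% a region called in all 4 libraries. A one-sided region within 1 kb of an end was found for 0.894% (A442M-FLAG) and 0.434% (G444E-FLAG) of them. By the blocked fit, 10% had a region higher in A442M-FLAG and 11.8% one higher in G444E-FLAG. In the lists, 104 members had an A442M-FLAG one-sided region and 30 a G444E-FLAG one. With equal lists these counts became 51 and 66, beside 16.9% and 13.5% of all genes. The lists tied to this cell line also had many members near a region called in all 4 libraries, so each count below is read beside that one.

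Genes of the basal breast epithelium had a region one-sided to A442M-FLAG in 12 of 18 cases, and to G444E-FLAG in 2, while 15 had a shared region. CAV1 and CAV2 rested on 1 shared A442M-FLAG region, and the region near KRT17 was 1 of the 2 near KRT14. With equal lists the counts were 3 and 4. In full lists MYLK, the myosin light chain kinase, had 2 and 1, and EGFR, the epidermal growth factor receptor, and ITGA6, the integrin alpha-6 subunit, had 2 and none each. By rank, 6 of the 50 tested regions near these genes were higher in A442M-FLAG and 11 in G444E-FLAG. Near ITGA6 a region stood at 64.2 and 57.8 in A442M-FLAG and at 3.40 and 14.4 in G444E-FLAG (52.1 points, SE 11.6, limma with block, adjusted p = 0.0067). Near SOX9, a factor of mammary progenitors, one stood at 28.3 and 28.8 against 83.1 and 83.0 (-54.5 points, SE 10.2, limma with block, adjusted p = 0.0032). These and the following regions with the largest difference in a list were chosen after their values were seen, and without the block no limma adjusted p among them was below 0.177.

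Genes of the luminal epithelium, the state GATA3 is known for, had a one-sided region in 4 of 24 cases on the A442M-FLAG side and in 1 on the G444E-FLAG side, while 18 had a shared region. With equal lists the counts were 3 and 7, so the side with more members turned. In full lists ELF5, a factor of luminal progenitors, had 3 on the A442M-FLAG side, at the 47.8th and 57.5th, the 48.2nd and 59.6th, and the 53.8th and 18.9th percentile, with no shared region nearby. KRT19, a luminal keratin, had 2, and CDH1, encoding E-cadherin, had 1. Both regions near KRT19 were nearest to KRT9 and were also counted for KRT14 of the basal list. By rank, 1 of the 38 tested regions was higher in A442M-FLAG and 7 in G444E-FLAG, with a median difference of -5.20 points against -1.58 over all tested regions. A region near CLDN4, a tight-junction claudin, stood at 12.3 and 36.2 in A442M-FLAG and at 54.9 and 72.7 in G444E-FLAG (-39.6 points, SE 10.9, limma with block, adjusted p = 0.017). The estrogen response list had 5 of 15 members on the A442M-FLAG side and 1 on the other, and 2 and 2 with equal lists. CA12, a carbonic anhydrase, had 3 regions one-sided to A442M-FLAG, MYB had 2 and GREB1 had 1.

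Mesenchymal genes had an A442M-FLAG one-sided region in 7 of 20 cases and a G444E-FLAG one in 3, and in 3 and 4 with equal lists. Near VIM, encoding vimentin, the intermediate filament of mesenchymal cells, lay 2 regions one-sided to A442M-FLAG and 1 to G444E-FLAG. The first (chr10:17203425-17203742) stood at the 81.2nd and 74.5th percentile and was otherwise called only in both WT-FLAG libraries. The G444E-FLAG region (chr10:17237961-17239033) lay within 1 kb of an end of VIM, and was weak, at the 11.6th and 10.5th percentile. CDH2, encoding N-cadherin, and ZEB2 had 2 A442M-FLAG regions each. By rank, 3 of 37 tested regions near mesenchymal genes were higher in A442M-FLAG and 9 in G444E-FLAG. TWIST1 had one at 90.2 and 88.3 against 52.6 and 31.6 (47.2 points, SE 9.70, limma with block, adjusted p = 0.0046). SNAI1 had one at 35.4 and 40.1 against 81.2 and 74.2 (-39.9 points, SE 10.2, limma with block, adjusted p = 0.012). Near SPARC, a matrix glycoprotein, a region one-sided to G444E-FLAG stood at the 81.3rd and 64.6th percentile and was called in all 8 other libraries.

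TGF-beta signalling passes from the receptors TGFBR1, TGFBR2 and TGFBR3 to SMAD factors and their repressors SKIL and TGIF1. Of its 18 listed genes, 10 had a region one-sided to A442M-FLAG and 3 one to G444E-FLAG, and 17 had a shared region. With equal lists the counts turned to 4 and 7. TGFBR2 had 5 A442M-FLAG regions and 1 G444E-FLAG region. The strongest of the 5 (chr3:30599498-30599890) stood at the 63.4th and 70.2nd percentile and was called in both untagged A442M libraries, 1 untagged G444E library and 1 WT-FLAG library. TGFBR3 had 3. SKIL had 1 A442M-FLAG region and 2 G444E-FLAG regions, of which one (chr3:170358098-170358577) lay within 1 kb of the gene's end, at the 5.53rd and 6.93rd percentile. By rank, 6 of 59 tested regions were higher in A442M-FLAG and 9 in G444E-FLAG, and 1 region near TGFBR2 went the second way, at 26.0 and 6.67 against 62.8 and 58.6 (-44.4 points, SE 11.3, limma with block, adjusted p = 0.012). TGIF1 went the first way, at 82.5 and 84.2 against 39.1 and 45.6. So 1 gene can hold regions of both directions.

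The Hippo list, with YAP1, the TEAD factors and YAP targets, had 13 of 22 members on the A442M-FLAG side and 3 on the G444E-FLAG side, with 21 near a shared region, and equal lists gave 5 and 4. ANKRD1 and PTPN14 had 3 A442M-FLAG regions each, and CCN1 had 2 with 1 on the other side. Of 71 tested regions, 10 (14.1%) were higher in A442M-FLAG and 6 (8.45%) in G444E-FLAG. Near YAP1 itself a region stood at 74.3 and 82.5 in A442M-FLAG and at 16.07 and 35.98 in G444E-FLAG (52.4 points, SE 10.5, limma with block, adjusted p = 0.0042). Near AMOTL2 one stood at 22.2 and 55.9 against 82.6 and 80.2. The integrin and laminin list had 9 of 21 members on the A442M-FLAG side and 3 on the other, which turned to 5 and 8 with equal lists. ITGAV had 3 A442M-FLAG regions and ITGB3 had 2, and ITGB4, the hemidesmosomal subunit, had a weak one within 1 kb of its end (chr17:75721225-75721630), at the 14.8th and 9.53rd percentile. A tested region near ITGB3 stood at 92.7 and 78.1 in A442M-FLAG and 44.7 and 15.9 in G444E-FLAG, while one near LAMB3 stood at 0.233 and 29.4 against 62.2 and 62.9.

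AP-1 factors, dimers of FOS, JUN, ATF and BATF proteins, had few regions. Of 12 members, 2 were near an A442M-FLAG one-sided region and 2 near a G444E-FLAG one, with 1 and 4 in equal lists. BATF had 4 A442M-FLAG regions, the strongest at the 72.9th and 73.7th percentile (chr14:75555892-75556274) and called in no other library. JUN had 2 A442M-FLAG regions and 1 G444E-FLAG region (chr1:58815061-58815450), which stood at the 77.1st and 72.1st percentile and was called in all 8 other libraries. ATF3 had a G444E-FLAG region at the 82.64th and 60.02nd percentile, also called in all 8. Of the 11 tested regions, 1 was higher in A442M-FLAG and 5 in G444E-FLAG, over a median difference of -3.67 points. FOSL2 held both, with one region at 24.4 and 7.59 against 80.9 and 63.5 (-56.2 points, SE 10.8, limma with block, adjusted p = 0.0036) and another at 98.3 and 98.0 against 95.0 and 91.4 (4.97 points, SE 1.25, limma with block, adjusted p = 0.012).

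Other GATA factors and cofactors had 7 of 17 members near an A442M-FLAG one-sided region, among them GATA1, GATA2 and CBFB with 1 each, and none near a G444E-FLAG one. The equal lists gave 3 and 5. Of 22 tested regions, 3 were higher in each direction. Near ZFPM1, encoding the cofactor FOG1, a region stood at 87.9 and 81.6 in A442M-FLAG and at 30.1 and 20.9 in G444E-FLAG (59.2 points, SE 10.2, limma with block, adjusted p = 0.0026). Within 50 kb of LDB1, the adaptor that links GATA factors at looped enhancers, lay a region 324 bp from an end of HPS6. It stood at 60.6 and 58.8 against 92.9 and 96.2 (-34.8 points, SE 6.47, limma with block, adjusted p = 0.0032). The interferon list had 6 of 16 and none in full lists and 4 and 4 in equal ones. In full lists, 2 A442M-FLAG regions each lay near IFIT2 and RIGI. The 1 near IFIT3 was also counted for IFIT2, and MX1 and MX2 shared 1 region. The ubiquitin and proteasome list had 11 of 20 and 1, and 8 and 5 with equal lists. FBXW7, the substrate receptor of a cullin ligase, had 2 and 1, and CUL3 and CUL4A had 1 and none each. A tested region near RBX1, the RING subunit of cullin ligases, stood at 77.4 and 85.8 against 6.85 and 50.3.

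Cell cycle genes had 6 of 17 members near an A442M-FLAG region and 4 near a G444E-FLAG one, and 2 and 4 with equal lists. CCND3, encoding cyclin D3, had 4 and 1, the strongest (chr6:41956886-41957864) at the 81.9th and 85.7th percentile and otherwise called only in WT-FLAG. CCNE2, encoding cyclin E2, had an A442M-FLAG region within 1 kb of its end at the 63.8th and 79.8th percentile, called in no other library. CDK4 had a G444E-FLAG region there at the 10.4th and 34.8th. CCNA2 had 1 A442M-FLAG region and CCNB1 had 1 G444E-FLAG region. The lists of genes that serve as a reference were not lower throughout. Housekeeping genes had 7 of 14 and 2 (3 and 3 with equal lists), with B2M near 1 on the A442M-FLAG side, ACTB with 1 on the other, and RPLP0 with 1 of each. For cells other than the breast line the counts were 1 and 4 of 17 for T cells, where IL7R had 2 A442M-FLAG regions and 3 of the 4 on the other side, CD3D, CD3E and CD3G, rested on 1 shared G444E-FLAG region. They were 3 and none of 17 for erythroid genes, with EPB42 and with HBA1 and HBA2, which shared 1 region, 2 and 2 of 16 for neuronal genes, with 3 A442M-FLAG regions near SYT1 and 1 G444E-FLAG region each near DLG4 and GAD1, and 2 and none of 15 for muscle genes, with 4 near TTN and 2 near MB. With equal lists the counts were 1 and 4 for T cells, 3 and 2 for erythroid, 1 and 4 for neuronal and 1 and none for muscle genes. These markers give the place of binding in DNA, and not what the cells express.

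**Figure D5:**
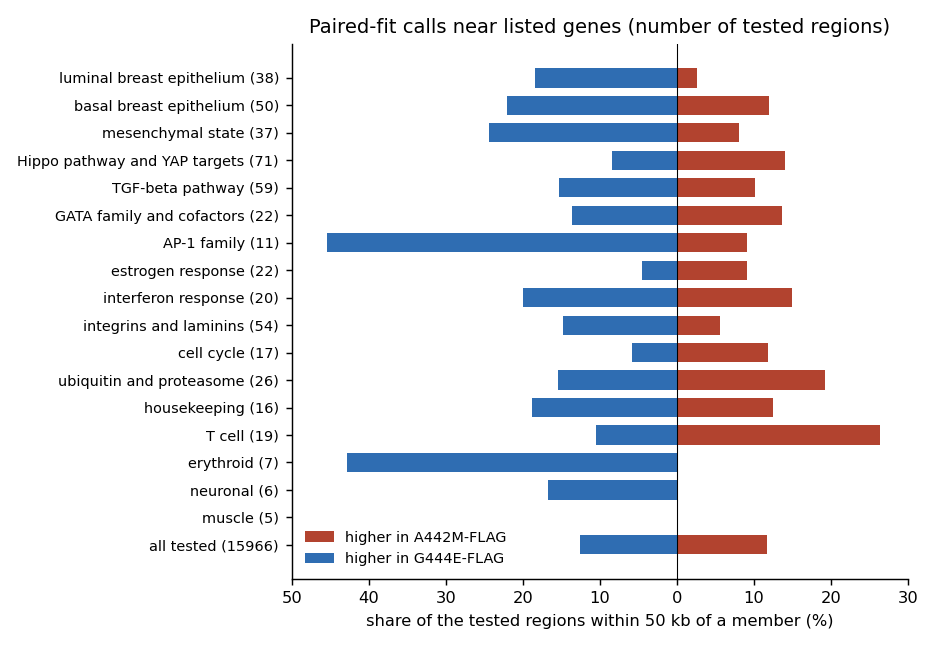
For each gene list, the share (%) of tested regions within 50 kb of a member that limma with the replicate block called higher in A442M-FLAG (red, right) or in G444E-FLAG (blue, left), with the number of tested regions in brackets. Over all 15966 tested regions the shares were 11.8% and 12.6%; lists with few tested regions, such as AP-1 with 11 and erythroid with 7, move far with each region.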

How the data were processed

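The deposited lists gave each peak's chromosome, start, end, name and a score, which is the authors' own value on a scale the files do not name (lowest 5.00) and served only for ranks and filters inside each list. The build was hg38, and the tools were FastQC and MACS2 2.1.4, per the submitters' processing notes. Not given in the sources used here are the aligner, the depth, the control and any filter. Peaks were called per sample, not on pooled samples.

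Peaks of the 4 lists were merged at 1 bp overlap, and a library called a region where it had a peak. For ranks, lists were cut to 30026 peaks by score, and percentiles of regions called in all 4 were fitted with limma 3.58.1 (R 4.3.3, eBayes with trend, Benjamini-Hochberg adjustment over 15966 regions, adjusted p under 0.05). Single values per library were compared by exact permutation tests (numpy 2.4.6, two-sided), and percentiles were ranked with scipy 1.17.1. Both limma fits were tested on simulated data.

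The labels give replicate numbers without saying what they share. In all 15 pairs of the 6 groups, the replicate 1 minus replicate 2 differences correlated over 8305 regions (r from 0.438 to 0.591). For these groups r was 0.552 there and 0.517 over the tested regions, so the numbers were taken to pair libraries. The labels themselves do not state this pairing, and the blocked value stands beside the other.

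Gene spans (20033 protein-coding genes) and gene-start windows came from RefSeq tables of GRCh38.p14; spans carry no exons, introns or untranslated regions, so none were assigned. Named regions were the 12 and 10 one-sided regions with the highest lower percentile (named by a gene end within 100 kb), the 8 smallest limma p in each direction, the 5 highest shared regions, regions within 50 kb of GATA3, up to 3 members per list with the most one-sided regions, and members with one within 1 kb of an end. The largest blocked difference of each list was added after values were seen. A few items that these rules name are not reported here. Members and lists were chosen with earlier results of these data known. Alternatives varied list length, score minimum, overlap, merging, chromosomes, scale, variance model, distance, pairing and libraries.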

Additional observations from a re-analysis of the deposited data

How the results depend on the processing

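Cutting lists to the shortest length moved the one-sided counts from 7142 to 3414 (A442M-FLAG) and from 897 to 2188 (G444E-FLAG). It also turned the difference in median width from -13.5 to 35.5 bp, and moved listed genes near a one-sided region from 104 to 51 and from 30 to 66. Within 10 kb these were 36 and 13 of 285 listed genes, beside 8.64% and 1.70% of all protein-coding genes. Requiring peaks to cover at least 50% of a region left 13440 regions called in all 4. Leaving out each library in turn, with the remaining one standing for its group, gave 9372 to 15766 regions one-sided to A442M-FLAG, 1818 to 5608 to G444E-FLAG and 21757 to 25844 called in all, a log2 length ratio of 0.22 to 0.65, a gene-end difference of -2.25 to -0.15 points and a width difference of -69.5 to 42.5 bp. The width difference turned to 28.0 bp without A442M-FLAG replicate 1 and to 42.5 bp without G444E-FLAG replicate 2. In the unblocked limma fit, calls leaving out 1 library ranged from 0 to 100 higher in A442M-FLAG and 0 to 52 higher in G444E-FLAG; the lone library is then assumed to vary like the other group. Normal scores gave 1 and log2 scores 2 calls higher in A442M-FLAG. The replicate block gave 1877 and 2009. With choices added after seeing the data, the block gave 2735 and 2668 (normal scores), 2934 and 2904 (quantile normalized log2 scores), and 4001 and 1067 (full lists). With labels exchanged within replicate numbers, the replicate block gave p = 0.5 for the length ratio and, added after seeing the data, for the gene-end share, the smallest an exact permutation test of 2 pairs can give, and p = 1 for width. Leaving out a library from the blocked fit leaves no residual degrees of freedom, and was not run. Of 27 named regions, 26 kept their class under 50% cover and 27 under each other setting. These regions were picked as the strongest of their class. Leaving out a library, limiting chromosomes or removing weak peaks could therefore not change their class, and only cover and merging could. No difference named in the fit was reversed where it could be refitted, which left 5 of 16 under 50% cover, 15 with scores of at least 10 and 16 otherwise. The causes of these shifts were not tested. Without read counts, depth could not be weighed, and a missing call does not show a lack of binding.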

Other observations

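One-sided regions were spread over all chromosomes. On the A442M-FLAG side their share of a chromosome's regions ran from 6.74% on chromosome 19 to 13.3% on chromosome 4, beside 11% overall. On the G444E-FLAG side it ran from 0.781% on chromosome 22 to 1.86% on chromosome 5, beside 1.38% overall. Regions called in both libraries of one mutant and 1 of the other numbered 7083 for A442M-FLAG and 2449 for G444E-FLAG, and 7323 had 1 call in each. Regions called in a single library numbered 13140 for the A442M-FLAG libraries and 6293 for the G444E-FLAG libraries.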
